A study of Mus musculus with 16 samples.

Results

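The genes described here encode the presynaptic machinery that fills, docks and fuses synaptic vesicles and the postsynaptic scaffold that holds glutamate receptors opposite the release site. A list of 45 genes was set by name, 25 presynaptic and 20 postsynaptic, and each gene was read by its brightest probe set among those that carry 1 gene symbol. This left 44 genes, 24 presynaptic and 20 postsynaptic, of 19935 genes and 21780 probe sets with 1 symbol in the series. The gene not measured was Vamp2, whose probe set carries several symbols. Values are log2 of the deposited intensity, on which a difference of 1 is a doubling.

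A presynaptic terminal stores glutamate in vesicles, tethers them to the cytoskeleton with synapsins and primes them at the active zone with RIM, Munc13, bassoon and piccolo. Fusion needs the SNARE proteins syntaxin, SNAP25 and synaptobrevin (VAMP), is clamped and promoted by complexins, and is triggered by calcium through synaptotagmins. On the other side of the cleft neuroligins bind presynaptic neurexins, and a lattice of Dlg, Dlgap, Shank and Homer proteins links them to receptors and to CaMKII, the kinase whose activation underlies long-term potentiation in the hippocampus.

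Hippocampal RNA came from female mice aged 3 months on an F2 mix of the strains C57BL/6J and DBA, which were wild type or heterozygous for a deficiency of CBP (cbp+/-, the product of Crebbp, a histone acetyltransferase and coactivator of the transcription factor CREB). The mice lived in standard cages or spent 2 weeks in a large box with running wheels, tubing and toys, and every wild-type mouse was a littermate of the mutants. Each array held equal amounts of RNA of 4 mice, so that the 16 arrays stand for 64 mice: 5 arrays of each genotype from standard cages (WT_SC and CBP_SC) and 3 of each genotype from enrichment (WT_EE and CBP_EE), each named with its replicate number. The comparisons ask whether housing, genotype or their combination went with another level of these genes. The deficiency is constitutive and the tissue is the whole hippocampus, so in these bulk samples fewer cells of a type and less RNA per cell cannot be told apart.

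All 14 defining markers of hippocampal pyramidal and granule neurons were measured and none was dim, while 6 of 12 thalamic and 8 of 10 choroid plexus markers were. Of the markers of other neighbouring tissue, 4 of 11 neocortical and 3 of 10 striatal ones were dim, so most of these were not. Crebbp did not separate the labels: its log2 level was 9.21 to 9.64 in WT_SC, 9.18 to 9.35 in WT_EE, 9.35 to 9.88 in CBP_SC and 9.33 to 9.37 in CBP_EE, and it was higher on the array labelled cbp+/- in 8 of 8 same-numbered pairs. Its average difference was 0.12 (adjusted p = 0.999 with limma), and the share of all probe sets higher in every pair is not given here. Probes along the full length of a gene can also read a transcript of a mutant allele, which was not tested. This is therefore a partial check, and each direction between genotypes below rests on the labels. By average-linkage clustering the arrays fell into 3 sets that cross the groups. Set 1 held the standard-cage arrays of numbers 1, 2 and 4 and the enrichment arrays of numbers 1 and 2. Set 2 held the standard-cage arrays of number 3, and set 3 held the standard-cage arrays of number 5 with the enrichment arrays of number 3.

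The promoters of 4 members are shown because the later results return to these genes: Syn1 for a CREB motif, Slc17a7 and Nlgn2 for their large differences between arrays, and Cplx2 for its low level in enrichment. RefSeq windows of assembly GRCm38.p6, from 250 bases before to 50 after the transcription start, were at hand for 32 of the 45 members. Capitals mark matches, on either strand, to TGACGTCA (the full CREB site), to TGACG (its shorter form, which the full site contains) or to GGGCGG (the GC box of Sp factors). Matches to TATAAA (the TATA box) were also counted, and the 4 printed windows hold none. The windows lie at chrX:20920869-20921168 (Syn1, minus strand), chr7:45163671-45163970 (Slc17a7, plus strand), chr11:69837735-69838034 (Nlgn2, minus strand) and chr13:54302306-54302605 (Cplx2, plus strand).
Syn1: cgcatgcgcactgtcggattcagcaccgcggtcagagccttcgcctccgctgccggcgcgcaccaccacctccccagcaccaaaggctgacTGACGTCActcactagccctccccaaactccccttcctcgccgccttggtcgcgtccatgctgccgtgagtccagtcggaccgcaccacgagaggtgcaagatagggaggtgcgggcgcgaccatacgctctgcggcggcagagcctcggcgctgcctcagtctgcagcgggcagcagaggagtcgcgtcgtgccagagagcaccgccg
Slc17a7: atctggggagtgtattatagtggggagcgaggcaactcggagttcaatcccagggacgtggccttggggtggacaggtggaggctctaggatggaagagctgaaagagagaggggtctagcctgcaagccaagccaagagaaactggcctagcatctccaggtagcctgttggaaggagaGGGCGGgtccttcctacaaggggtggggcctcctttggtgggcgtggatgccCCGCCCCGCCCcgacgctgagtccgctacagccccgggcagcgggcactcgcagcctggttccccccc
Nlgn2: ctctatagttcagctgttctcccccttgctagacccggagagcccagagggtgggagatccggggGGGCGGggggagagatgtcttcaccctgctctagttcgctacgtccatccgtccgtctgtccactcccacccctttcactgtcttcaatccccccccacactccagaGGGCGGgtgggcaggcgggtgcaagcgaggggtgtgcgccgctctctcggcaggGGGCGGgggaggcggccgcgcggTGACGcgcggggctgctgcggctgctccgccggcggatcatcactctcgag
Cplx2: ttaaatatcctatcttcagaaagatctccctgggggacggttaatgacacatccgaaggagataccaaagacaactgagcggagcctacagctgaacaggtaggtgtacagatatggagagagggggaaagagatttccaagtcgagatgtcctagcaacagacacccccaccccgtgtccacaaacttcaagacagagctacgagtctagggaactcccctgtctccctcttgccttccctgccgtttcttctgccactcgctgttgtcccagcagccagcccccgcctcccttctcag

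The full CREB site stood in the window of 1 member, Syn1, where it begins 159 bases upstream of the start. Counted over windows, since a gene can have several, it was in 1.92% of the 52 member windows and in 1.79% of all 32851 windows. The shorter TGACG was in windows of 10 members (19.2% of member windows, 20.8% of all). The GC box was more frequent, in windows of 25 of the 32 members (51.9% of member windows, 35.7% of all), and TATAAA stood in those of 4, Sv2b, Dlg1, Dlg2 and Homer2 (9.62% and 13.6%). The median GC content was 63.6% over the members and 57.3% over all 15612 measured genes with a window. Slc17a7 and Nlgn2 have 3 GC boxes each, while the Cplx2 window holds none of the 4 motifs.

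Synaptic genes were among the brightest on these arrays. By mean intensity, 24 of the 44 members were in the brightest decile of all probe sets, 13 in the next, 7 in the 3 deciles below that, and 0 in the 5 dimmer deciles. Syt1 (mean 11.95), Camk2a (11.90) and Snap25 (11.89) were the brightest and Syt2 (6.91) the dimmest. Probe sets differ in their affinity, so these values give no order of transcript levels between genes.

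In wild-type mice 39 of the 44 members had a lower mean in enrichment than in standard cages and 5 a higher one, against 41.6% of all probe sets that were lower. In deciles 9 and 10 of brightness, where 10 is the brightest, 72.7% and 70.8% of all probe sets were lower. The median difference of the members was -0.206 log2, while that of all probe sets was 0.0289. No member passed an adjusted p of 0.05 with limma (0 of 44, with 0% of all 21780 probe sets called), and 7 had an unadjusted p under 0.05, each lower. In that way 3.72% of all probe sets were called lower and 14.1% higher. All 3 enrichment arrays lay below all 5 standard-cage arrays for 8 members (2% of all probe sets): Syn2, Syt1, Unc13a, Cplx2, Nlgn3, Camk2b, Camk2d and Camk2g. They lay above for 0 members (9.16% of all probe sets). The postsynaptic members had a median of -0.212 (18 of 20 lower) and the presynaptic members -0.155 (21 of 24 lower).

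In mice labelled cbp+/- 38 of the 44 members were lower in enrichment, against 45% of all probe sets (61.1% and 54.9% in deciles 9 and 10). The median was -0.136 log2, with -0.153 over the postsynaptic and -0.119 over the presynaptic members and 0.00956 over all probe sets. Again 0 of 44 members passed the adjusted threshold with limma (0% of all probe sets). Camk2g and Cplx2 had an unadjusted p under 0.05 both lower (1.29% of all probe sets were called lower and 1.54% higher), and Nlgn2 was the 1 member whose 3 enrichment arrays lay below all 5 standard-cage arrays (1.25% of all probe sets, with 1.64% above). Averaged over both genotypes 39 members were lower, against 41.1% of all probe sets (70.4% and 64.7% in deciles 9 and 10). The median of the members was -0.173 and 0 of 44 passed (0%). An unadjusted p under 0.05 was found for 9 members, each lower (5.73% of all probe sets were lower in that way and 13.4% higher).

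**Figure D1:**
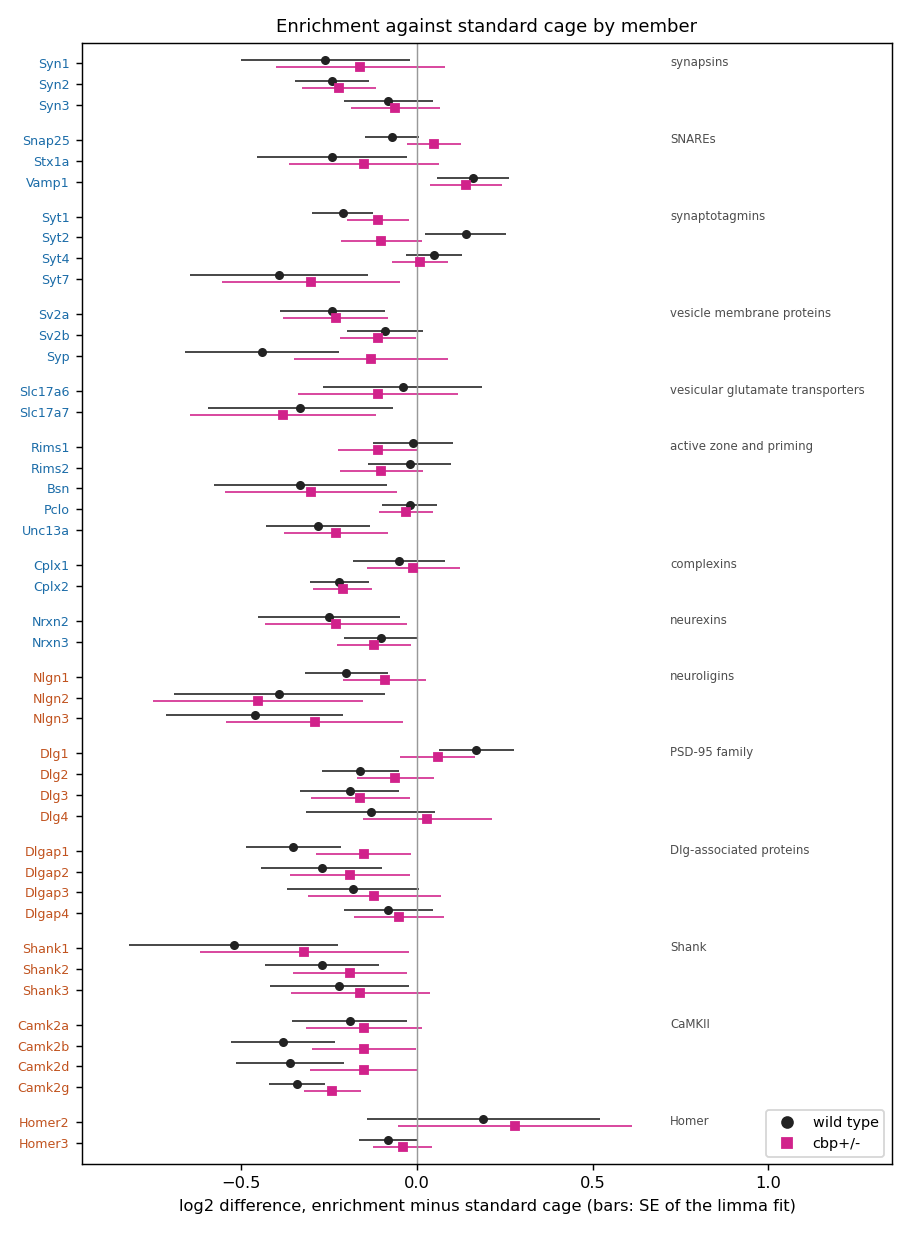
Log2 difference between enrichment and standard cage for each of the 44 members by family, in wild type (black circles) and cbp+/- (pink squares), with the standard error of the limma fit as bars; gene names are blue for presynaptic and orange for postsynaptic members. Most points lie left of 0 in both genotypes, from -0.52 for Shank1 in wild type to 0.28 for Homer2 in cbp+/-.

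The synapsins, which tether vesicles to actin, were lower in both genotypes for all 3 members. Syn2 was the steadiest of them. It read 10.66, 10.69, 11.01, 10.87 and 10.67 on WT_SC_1 to WT_SC_5 and 10.56, 10.52 and 10.53 on WT_EE_1 to WT_EE_3. On the arrays labelled cbp+/- it read 10.62, 10.59, 10.96, 10.98 and 10.56 in standard cages and 10.49, 10.50 and 10.57 in enrichment. The wild-type housings did not overlap, the 2 highest arrays of each standard-cage group were numbers 3 and 4, and CBP_EE_3 lay just above CBP_SC_5. The Syn2 difference was -0.24 (SE 0.106, adjusted p = 0.251 with limma) in wild type, -0.22 (SE 0.106, adjusted p = 0.999) in cbp+/- and -0.23 (SE 0.0749, adjusted p = 0.168) on average, a level 1.17-fold lower.

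Syn1, the synapsin with the CREB site printed above, was dominated by the standard-cage arrays of number 3. It read 9.69, 9.75, 10.76, 10 and 9.60 in WT_SC and 9.80, 9.72 and 9.59 in WT_EE. In CBP_SC it read 9.73, 9.71, 10.48, 9.91 and 9.47 and in CBP_EE 9.77, 9.69 and 9.62. Apart from number 3, the housings overlapped in both genotypes. The Syn1 difference was -0.26 (SE 0.240) in wild type and -0.16 (SE 0.240) in cbp+/-, and Syn3 had -0.08 and -0.06.

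Of the SNARE genes, Snap25 and Stx1a encode the plasma membrane partners and Vamp1 a vesicle partner. Snap25 read 11.87, 11.83, 11.93, 11.72 and 12.09 in WT_SC and 11.84, 11.86 and 11.75 in WT_EE. Its CBP_SC arrays read 11.86, 11.81, 11.93, 11.82 and 12.04, and its CBP_EE arrays 11.88, 11.92 and 12.04. The housings overlapped in each genotype, and the difference of -0.07 in wild type and 0.05 in cbp+/- was smaller than its SE (0.0767) in both. Vamp1 was one of the few members with a higher mean in enrichment, by 0.16 in wild type and 0.14 in cbp+/- (SE 0.103), and Stx1a had -0.24 and -0.15 (SE 0.214). With quantile normalization the median of the 3 SNARE genes turned from -0.0701 to 0.0195 in wild type.

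Synaptotagmins are the calcium sensors of release, Syt1 and Syt2 for the fast phase and Syt7 for slower phases. Syt1, the brightest member, read 12.07, 12.02, 12.21, 11.91 and 11.91 in WT_SC and 11.88, 11.85 and 11.71 in WT_EE. Its values were 11.99, 11.93, 12.27, 11.92 and 11.89 in CBP_SC and 11.92, 11.87 and 11.87 in CBP_EE. Of the 6 enrichment arrays 5 lay below all 10 standard-cage arrays, and CBP_EE_1 overlapped them. The Syt1 difference was -0.21 (SE 0.0872, adjusted p = 0.236 with limma) in wild type, -0.11 (SE 0.0872, adjusted p = 0.999) in cbp+/- and -0.16 (SE 0.0617, adjusted p = 0.199) on average.

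Syt7 had -0.39 and -0.30 (SE 0.253). Its standard-cage arrays 3 and 4 were both 0.70 above the mean of numbers 1 and 2. Its enrichment arrays of number 3 differed by -0.31 from those of numbers 1 and 2. Syt4, a synaptotagmin found also on dense-core vesicles, read 9.78, 9.72, 9.57, 9.42 and 9.59 in WT_SC and 9.68, 9.75 and 9.55 in WT_EE. It read 9.76, 9.70, 9.73, 9.53 and 9.81 in CBP_SC and 9.66, 9.76 and 9.72 in CBP_EE. All 4 groups overlapped for Syt4, with a housing difference of 0.05 in wild type and 0.01 in cbp+/-. The median of the 4 synaptotagmins in wild type, -0.0804, became 0.0071 with quantile normalization.

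The vesicle membrane proteins Syp (synaptophysin), Sv2a and Sv2b were lower in both genotypes. Syp read 11.24, 11.23, 11.65, 11.35 and 10.97 in WT_SC and 11.20, 11.21 and 10.15 in WT_EE. In CBP_SC it read 11.19, 11.30, 11.73, 11.27 and 11.05 and in CBP_EE 11.26, 11.22 and 11.07. A single array, WT_EE_3, stood far below the rest, and the wild-type difference of -0.44 (SE 0.219, adjusted p = 0.312 with limma) was -0.09 without it. In cbp+/- the Syp difference was -0.13, and Sv2a had -0.24 in wild type and -0.23 in cbp+/- (SE 0.149).

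The vesicular glutamate transporters Slc17a7 (VGLUT1, the main form of hippocampal pyramidal and granule cells) and Slc17a6 (VGLUT2, prominent in subcortical inputs) load vesicles with glutamate. Slc17a7 read 10.70, 10.77, 11.63, 11.22 and 10.50 in WT_SC and 10.77, 10.76 and 10.36 in WT_EE. It read 10.82, 10.81, 11.70, 11.21 and 10.52 in CBP_SC and 10.69, 10.76 and 10.43 in CBP_EE. The Slc17a7 difference was -0.33 in wild type and -0.38 in cbp+/- (SE 0.264 for both, adjusted p = 0.524 and 0.999 with limma). On the arrays of numbers 1 and 2 the housings differed by -0.03. Standard-cage arrays 3 and 4 were 0.89 and 0.44 above numbers 1 and 2, and the enrichment arrays of number 3 differed by -0.35 from those of numbers 1 and 2. Slc17a6 differed between housings by -0.04 and -0.11 (SE 0.227), and its values are given with the genotypes below.

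The 5 active zone and priming genes were all lower in both genotypes, by unequal amounts. Bsn (bassoon) and Unc13a (Munc13-1), which organise the release site and prime vesicles, had -0.33 and -0.28 in wild type and -0.30 and -0.23 in cbp+/-. Rims1, Rims2 and Pclo (piccolo) lay between -0.02 and -0.01 in wild type and between -0.11 and -0.03 in cbp+/-. With quantile normalization the family's median turned from -0.0244 to 0.0585 in wild type, and with array set 1 alone it was -0.214, where Rims1, Rims2 and Pclo had -0.17, -0.21 and -0.15 beside -0.25 for Bsn and -0.22 for Unc13a. Unc13a also has 2 dimmer probe sets, which had 0.19 and 0.02 in wild type and 0.19 and 0.12 in cbp+/-, opposite to the brightest one.

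Complexins bind the assembled SNARE complex. Cplx2 read 9.43, 9.38, 9.57, 9.60 and 9.35 in WT_SC and 9.29, 9.22 and 9.22 in WT_EE. It read 9.27, 9.26, 9.55, 9.56 and 9.41 in CBP_SC and 9.25, 9.08 and 9.28 in CBP_EE. The wild-type housings did not overlap, and in cbp+/- 2 of 3 enrichment arrays lay below all 5 standard-cage arrays. The Cplx2 difference was -0.22 (SE 0.0833, adjusted p = 0.204 with limma) in wild type, -0.21 (SE 0.0833, adjusted p = 0.999) in cbp+/- and -0.21 (SE 0.0589, adjusted p = 0.142) on average. Cplx1 had -0.05 and -0.01 (SE 0.132). The neurexins Nrxn2 and Nrxn3, presynaptic adhesion receptors, had -0.25 and -0.10 in wild type and -0.23 and -0.12 in cbp+/-.

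**Figure D2:**
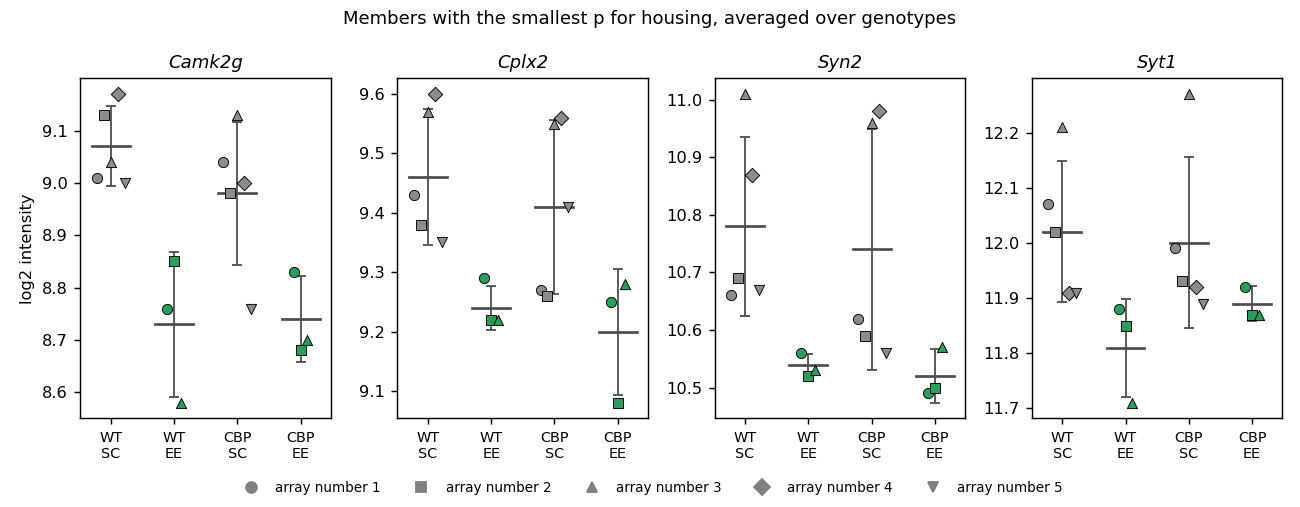
Log2 intensity of Camk2g, Cplx2, Syn2 and Syt1, the members with the smallest p for housing averaged over genotypes, on each array (grey standard cage, green enrichment, shape by array number), with the group mean and SD as bars. In wild type every enrichment array of all 4 genes lies below every standard-cage array, and in cbp+/- the housings overlap through 1 enrichment array each.

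Among the postsynaptic members the neuroligins, adhesion partners of the neurexins, included 2 of the largest differences, those of Nlgn2 and Nlgn3. Nlgn2, the neuroligin of inhibitory synapses, read 7.95, 8.05, 8.95, 8.63 and 7.72 in WT_SC and 8.07, 8.10 and 7.43 in WT_EE. It read 8.05, 8.03, 9.15, 8.47 and 7.93 in CBP_SC and 7.93, 7.92 and 7.79 in CBP_EE, where the lowest standard-cage and highest enrichment array are equal to 2 decimals. Standard-cage arrays ranged over 1.42, the widest range of any member. The Nlgn2 difference was -0.39 in wild type and -0.45 in cbp+/- (SE 0.299 for both, adjusted p = 0.508 and 0.999 with limma).

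Nlgn3, which acts at both kinds of synapse, read 9.08, 9.09, 10.04, 9.34 and 9.02 in WT_SC and 8.91, 9.02 and 8.65 in WT_EE. It read 9.16, 9.03, 10.11, 9.38 and 8.95 in CBP_SC and 9.02, 9.10 and 8.99 in CBP_EE. The number 3 standard-cage arrays stood 0.98 above numbers 1 and 2, and the wild-type housings came within rounding of each other at 9.02 without overlapping. The Nlgn3 difference was -0.46 (SE 0.251, adjusted p = 0.352 with limma) in wild type and -0.29 (SE 0.251, adjusted p = 0.999) in cbp+/-. Nlgn1 had -0.20 and -0.09.

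The Dlg scaffolds, of which Dlg4 encodes PSD-95, were less uniform. Dlg2 (-0.16 in wild type, -0.06 in cbp+/-) and Dlg3 (-0.19 and -0.16) were lower in both genotypes, Dlg4 was lower in wild type (-0.13) and not in cbp+/- (0.03), and Dlg1 was higher in both (0.17 and 0.06). None of these 4 had an SE under 0.107. All 4 genes of the Dlg-associated proteins, which link Dlg to Shank, were lower, from -0.35 (Dlgap1) to -0.08 (Dlgap4) in wild type and from -0.19 (Dlgap2) to -0.05 (Dlgap4) in cbp+/-. The dimmer probe set of Dlgap1 had 0.01 in wild type and 0.02 in cbp+/-, so the lower value rests on the brighter one.

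Shank1, a master scaffold of excitatory synapses, had the largest difference of any member in wild type. It read 9.38, 9.26, 10.04, 10.05 and 8.79 in WT_SC and 9.08, 9.21 and 8.65 in WT_EE. It read 9.20, 9.21, 9.92, 9.82 and 8.76 in CBP_SC and 9.16, 9.15 and 8.89 in CBP_EE. Numbers 3 and 4 were high and number 5 low in standard cages, and the housings overlapped in both genotypes through number 5. The Shank1 difference was -0.52 (SE 0.297, adjusted p = 0.367 with limma) in wild type, a level 1.44-fold lower, and -0.32 (SE 0.297, adjusted p = 0.999) in cbp+/-. Shank2 had -0.27 and -0.19 with its brightest probe set, but 0.29 and 0.34 in wild type with its 2 dimmer ones, and Shank3 had -0.22 and -0.16.

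All 4 CaMKII subunit genes were lower in both genotypes, and 3 of 4 had wild-type housings that did not overlap. With array weights 3 of 4 were lower in wild type. Camk2g, the gamma subunit, had the smallest p of any member. It read 9.01, 9.13, 9.04, 9.17 and 9 in WT_SC and 8.76, 8.85 and 8.58 in WT_EE. It read 9.04, 8.98, 9.13, 9 and 8.76 in CBP_SC and 8.83, 8.68 and 8.70 in CBP_EE. Without CBP_SC_5 at 8.76, every enrichment array lay below every standard-cage array of either genotype. The Camk2g difference was -0.34 (SE 0.0806, unadjusted p = 0.000922, adjusted p = 0.114 with limma) in wild type and -0.24 (SE 0.0806, unadjusted p = 0.00928, adjusted p = 0.999) in cbp+/-. On average it was -0.29 (SE 0.0570, adjusted p = 0.124 with limma), a level 1.22-fold lower, and it stayed between -0.32 and -0.25 when any 1 array was left out.

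Camk2b, the beta subunit, read 10.55, 10.57, 10.90, 11 and 10.49 in WT_SC and 10.39, 10.49 and 10.08 in WT_EE. It read 10.46, 10.61, 10.91, 10.95 and 10.43 in CBP_SC and 10.57, 10.49 and 10.49 in CBP_EE. The housings came within rounding of each other at 10.49 in wild type without overlapping, and they overlapped in cbp+/-, with a difference of -0.38 (SE 0.147, adjusted p = 0.209 with limma) and -0.15 (SE 0.147, adjusted p = 0.999). Camk2d had -0.36 and -0.15 (SE 0.154).

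Camk2a, the alpha subunit and the most abundant kinase of the postsynaptic density, read 11.96, 11.89, 12.14, 12.17 and 11.60 in WT_SC and 11.88, 11.97 and 11.45 in WT_EE. It read 11.93, 11.95, 12.27, 12.16 and 11.60 in CBP_SC and 11.94, 11.92 and 11.61 in CBP_EE. The housings overlapped in both genotypes, and number 3 of enrichment was as low as number 5 of standard cages. The Camk2a difference was -0.19 in wild type and -0.15 in cbp+/- (SE 0.164). The Homer adaptors, which couple Shank to metabotropic glutamate receptors, were split: Homer3 had -0.08 and -0.04, and Homer2 0.19 and 0.28 (SE 0.332) with its brightest probe set but -0.12 and -0.08 with the other.

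Most members were high or low on the same arrays, and this pattern ran across the study's groups. Each array was given a list level: every member's value minus that gene's mean over the 16 arrays, and the median of these 44 numbers. It was -0.166 to 0.236 over WT_SC, -0.219 to 0.32 over CBP_SC, -0.248 to -0.001 over WT_EE and -0.194 to -0.041 over CBP_EE. In standard cages the arrays of numbers 3 (0.236 and 0.32) and 4 (0.235 and 0.156) were highest and those of number 5 lowest (-0.166 and -0.219), in wild type and cbp+/- in turn. In enrichment both arrays of number 3 were lowest (-0.248 and -0.194), level with number 5 of standard cages. The enrichment arrays of numbers 1 and 2 lay between -0.053 and -0.001 and the standard-cage arrays of those numbers between -0.024 and 0.028.

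**Figure D3:**
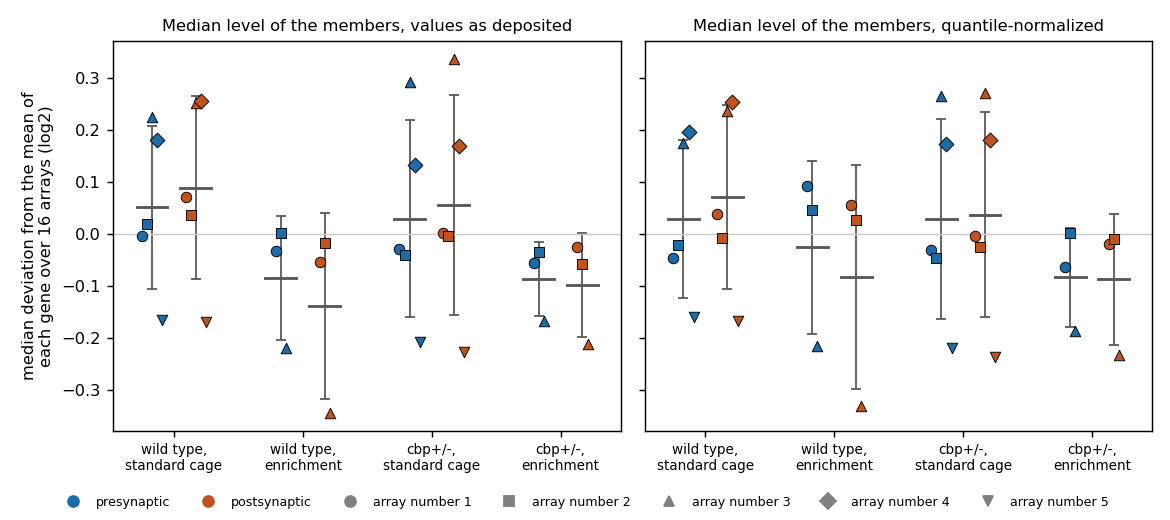
Median deviation of the presynaptic (blue) and postsynaptic (orange) members from each gene's mean on each of the 16 arrays, in log2, by group and array number (shape), with the group mean and SD, for the deposited values (left) and after quantile normalization (right). Standard-cage arrays of numbers 3 and 4 lie highest and number 5 and the enrichment arrays of number 3 lowest in both panels, while WT_EE_1 and WT_EE_2 lie above 0 after quantile normalization.

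Counted by member, 33 of 44 were higher on standard-cage number 3 than on numbers 1 and 2 (median 0.259, against 0.0106 over all probe sets, of which 53.7% were higher). On number 4, 31 of 44 were higher (median 0.18, against 0.00864 over all, of which 53.4% were higher). On number 5, 38 of 44 were lower (median -0.191, against -0.0067 over all, of which 11444 of 21780 were lower). Both enrichment arrays of number 3 were lower than numbers 1 and 2 for 36 members in their mean (median -0.162, against -0.043 over all, of which 13498 of 21780 were lower). With numbers 1 and 2 alone, enrichment against standard cage gave a median of -0.0635 with 31 of 44 lower. The median was 0.0329 over all probe sets (8634 of 21780 lower) and -0.0716 over the brightest decile (1583 of 2178 lower). The share of members that were lower was thus close to that of the brightest decile. The standard-cage range of a member was 0.585 in the median, against 0.392 over all probe sets. Its extremes were 0.34 for Cplx2 and 1.42 for Nlgn2.

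Not every member followed. Homer2 ran against the others, at -1.15 on standard-cage number 4 and 0.70 on enrichment number 3. On standard-cage number 3 Rims1, Rims2, Pclo, Sv2b, Dlg1, Dlg2 and Nlgn1 were also below numbers 1 and 2, with differences from -0.34 (Dlg1) to -0.21 (Dlg2), and Slc17a6, Nrxn3 and Syt4 had -0.13, -0.10 and -0.09. The 23 members with a promoter window that were higher on number 3 had a median GC content of 66.3%, and the 9 that were not had 48.3%. Promoter GC content and the number 3 difference had r of 0.46 over the 32 members with a window and 0.11 over all 15612 genes with 1. Whether promoter composition had a part in the pattern was not tested.

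**Figure D4:**
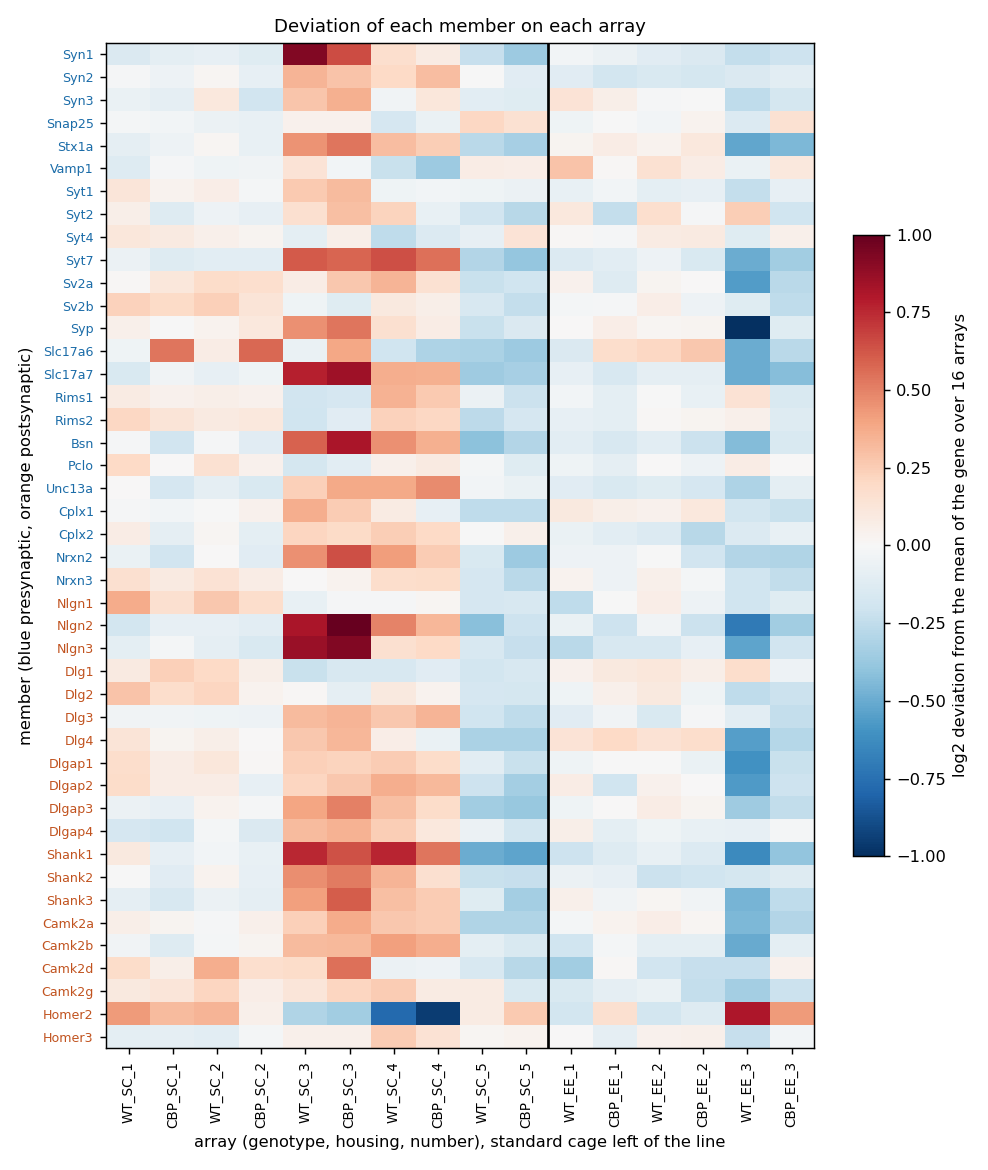
Deviation of each of the 44 members (rows) from its mean over 16 arrays (columns, standard cage left of the line, enrichment right, ordered by array number) on a log2 scale whose colours saturate at 1. Same-numbered standard-cage arrays of both genotypes mostly share their colours. Columns are mostly red for standard-cage numbers 3 and 4 and mostly blue for number 5 and for enrichment number 3. Homer2 runs the other way, and 11 and 13 of the 44 members were lower on standard-cage numbers 3 and 4 than on numbers 1 and 2.

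Set 2, the standard-cage arrays of number 3, holds no enrichment array, so housing can be compared within sets 1 and 3 only. Within set 1 the median difference between housings was -0.145 in wild type and -0.11 in cbp+/-, with 34 of 44 members lower in each. Within set 3, which has 1 array per group, it was -0.14 in wild type (34 lower) and 0.035 in cbp+/- (14 lower). Camk2g was lower in both sets, by -0.30 and -0.42 in wild type and -0.25 and -0.06 in cbp+/-, and so was Cplx2 (-0.21 and -0.12, -0.20 and -0.13). The median of all members moved by more than 1.5 times when single arrays were left out: to -0.0667 in wild type without WT_EE_3, and to -0.0797, -0.0814 and -0.216 in cbp+/- without CBP_SC_3, CBP_EE_3 and CBP_SC_5. The number of members with an unadjusted p under 0.05 moved as well. In wild type it was 2 without WT_EE_3, 4 without WT_SC_3 and 12 without WT_SC_5. In cbp+/- it was 1 without CBP_SC_3, CBP_SC_4 or CBP_EE_2. On average it was 4 without WT_EE_3, 20 without WT_SC_5 and 19 without CBP_SC_5. The share of all probe sets was not counted in these fits, so these numbers are not read as a result about the members.

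Calls of members arose under 4 other ways of fitting, and each came with many more calls over all probe sets. With the array number as a block, Sv2b, Camk2d and Camk2g passed on average over genotypes (3 of 44, 1.5% of all probe sets). Same-numbered arrays of the housings did not deviate together in wild type (r -0.39 to -0.01), and in cbp+/- r was -0.04 to 0.37. With arrays weighted by their agreement with their group, 7 members passed in wild type (24.1% of all), 1 in cbp+/- (4.77%) and 9 on average (28.3%), and for genotype Syt2 passed in enrichment (11.4%) and on average (0.698%). With set 1 alone, Camk2g passed in wild type (8.59%), and Camk2g and Rims2 on average (8.91%). Without both enrichment arrays of number 3, Camk2g passed on average (7.04%). For housing averaged over genotypes Camk2g was the member called in each of these 4, with an average difference from -0.32 to -0.21 and an adjusted p of 0.0011 to 0.0402 with limma, against 0.0516 to 0.378 in every other fit of that average, single arrays left out included.

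Brightness also moved with the housing difference. In wild type the median difference of all probe sets was between 0.0372 and 0.13 in the 5 dimmest deciles and between -0.0932 and -0.015 in the 5 brightest. In the brightest decile 70.8% of probe sets were lower, with a median of -0.0828, and the 24 members there had a median of -0.196. In cbp+/- the brightest decile had -0.0148 and its members -0.119. With quantile normalization, which removes the difference in signal range between arrays, the member median was -0.124 in wild type and -0.128 in cbp+/-, beside 0.000632 and -0.00151 over all probe sets. After it the list level of WT_EE_1 and WT_EE_2 was 0.073 and 0.046, above the -0.025 and -0.018 of WT_SC_1 and WT_SC_2.

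**Figure D5:**
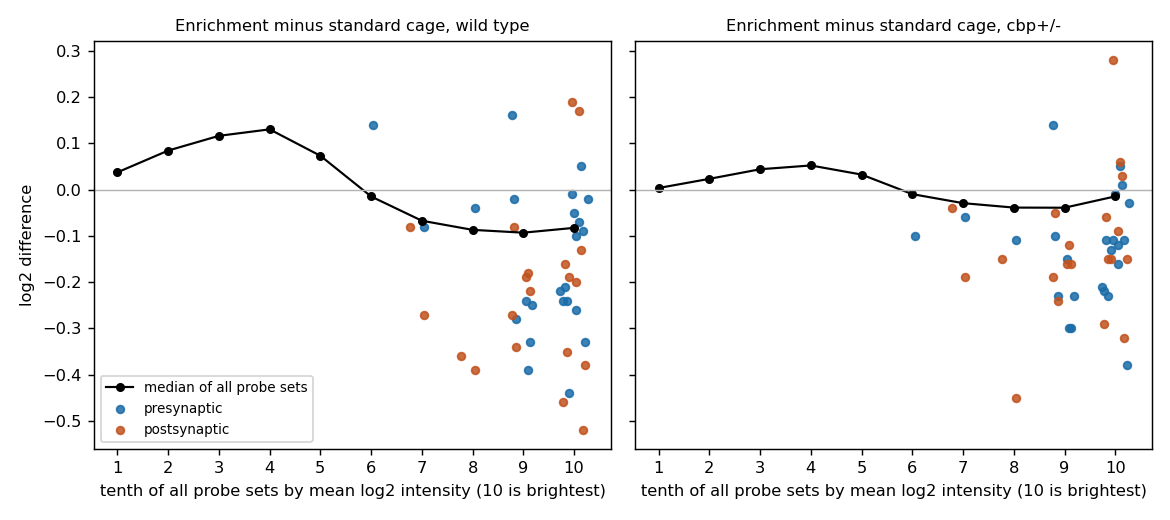
Log2 difference between enrichment and standard cage in wild type (left) and cbp+/- (right) against the decile of mean intensity, for the median of all probe sets (black line) and for each presynaptic (blue) and postsynaptic (orange) member. The line runs from 0.13 in the fourth decile to -0.0828 in the brightest in wild type, and most members lie below it in both genotypes.

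The median differences between genotypes were closer to 0 than those between housings. In standard cages 32 of 44 were lower on the arrays labelled cbp+/- (46.3% of all probe sets were), with a median of -0.0372, and in enrichment 28 of 44 were higher (41.7% of all probe sets), with a median of 0.0161. Averaged over housings 23 of 44 were lower (56.7% of all probe sets), with a median of -0.0101. None of these directions held when single arrays were left out. In standard cages 14 of 44 were lower without CBP_SC_5 (median 0.0272) and 16 of 44 without WT_SC_3 (0.0157). In enrichment 35 of 44 were lower without WT_EE_3 (median -0.0735), and the median was -0.00876 without CBP_EE_1, -0.00477 without CBP_EE_2 and -0.0291 with quantile normalization. The average ranged from -0.0531 to 0.0358, at its ends without WT_EE_3 and without CBP_SC_5. No member passed the adjusted threshold with limma in standard cages, in enrichment, in the interaction or on average (0 of 44 in each, 0% of all probe sets in each). At an unadjusted p under 0.05 there were 0 members in standard cages, where 0.487% of all probe sets were called lower and 0.5% higher, and 0 in the interaction (2.29% below 0, 0.372% above). Syt2 was the 1 member called, as lower, in enrichment (4.07% of all probe sets lower, 1.16% higher) and on average (2.5% lower, 1.41% higher). With a block for each same-numbered pair of genotypes, 0 members passed the adjusted threshold, and those at an unadjusted p under 0.05 numbered 2 in standard cages (4.39% of all probe sets), 5 in enrichment (13%), 3 in the interaction (6.62%) and 5 on average (11.7%). The 5 on average were Syt2, Slc17a6, Rims1, Sv2b and Nlgn3, with adjusted p from 0.243 to 0.398 with limma, and their share of the members was close to that of all probe sets. The interaction, the cbp+/- minus the wild-type housing difference, was above 0 for 32 of 44 members (42.5% of all probe sets), with a median of 0.0415, which became -0.0087 with quantile normalization, -0.046 without WT_EE_3, -0.0155 without CBP_SC_5 and -0.0119 without WT_SC_3. In enrichment the groups did not overlap for 2 lower members, Syt2 and Rims1 (6.85% of all probe sets), and 2 higher ones, Snap25 and Camk2b (3.53%), and in standard cages for 0 members (0.0872% of all probe sets lower, 0.174% higher).

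Syt2, the fast calcium sensor of many interneurons, read 6.97, 6.86, 7.07, 7.13 and 6.72 in WT_SC and 7.02, 7.08 and 7.16 in WT_EE. It read 6.78, 6.83, 7.21, 6.84 and 6.63 in CBP_SC and 6.67, 6.90 and 6.71 in CBP_EE. The enrichment groups did not overlap, the standard-cage groups did, and the array labelled cbp+/- was lower in 7 of 8 same-numbered pairs. The Syt2 difference was -0.33 (SE 0.128, unadjusted p = 0.0217, adjusted p = 0.924 with limma) in enrichment, -0.09 (SE 0.0993) in standard cages and -0.21 (SE 0.0811, adjusted p = 0.999) on average. Its interaction was -0.24 (SE 0.162, adjusted p = 1 with limma), so the genotype difference was not shown to differ between housings.

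Slc17a6 read 7.91, 8.03, 7.89, 7.76 and 7.64 in WT_SC and 7.81, 8.16 and 7.46 in WT_EE. It read 8.49, 8.53, 8.34, 7.65 and 7.59 in CBP_SC and 8.13, 8.23 and 7.69 in CBP_EE. Numbers 1 to 3 of standard cages were higher on the arrays labelled cbp+/- and numbers 4 and 5 were not. The Slc17a6 difference in standard cages was 0.28 (SE 0.197) and the enrichment difference 0.21 (SE 0.254). On average it was 0.24 (SE 0.161, adjusted p = 0.999 with limma), higher in 6 of 8 pairs. The summed intensity of 12 thalamic and habenular markers, regions whose neurons use Slc17a6, was 1590 to 1820 in WT_SC, 1590 to 1670 in WT_EE, 1550 to 1870 in CBP_SC and 1600 to 1680 in CBP_EE, and its part in the result was not tested.

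Every other genotype value of a member given here had an adjusted p of at least 0.935 with limma in the fit without a block. Syp was higher by 0.33 (SE 0.245) in enrichment on the arrays labelled cbp+/-, and -0.02 without WT_EE_3. Snap25 was higher by 0.13 (SE 0.0858, adjusted p = 0.935 with limma) in enrichment. Syt4 had 0.07 (SE 0.0564) on average, Shank1 -0.12 (SE 0.257), Syn1 -0.10 (SE 0.208) and Camk2g -0.09 (SE 0.0698) in standard cages.

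The rest of the synaptic machinery leaned the same way in enrichment. Of 57 other presynaptic genes measured of 62 listed (further synaptotagmins, endocytic proteins, vesicle ATPase subunits, Rab3 and liprin genes among them), 43 were lower in wild type and 40 in cbp+/- (41.6% and 45% of all probe sets), with medians of -0.134 and -0.0772. Of 50 other postsynaptic genes of 52 listed, 37 and 32 were lower, with medians of -0.128 and -0.0699. In deciles 7 to 10 of brightness, 67.9% to 73.3% of all probe sets were lower in wild type and 54.9% to 61.3% in cbp+/-. The other synaptic genes were not compared with genes of like brightness. With limma 0 of the 57 and 0 of the 50 passed the adjusted threshold in either genotype. In wild type 5 presynaptic and 2 postsynaptic genes were lower, and 1 postsynaptic gene higher, at an unadjusted p under 0.05, beside 3.72% of all probe sets lower and 14.1% higher.

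The gene that was higher was Homer1, a Homer family gene with a short activity-induced form, by 0.28 in wild type (SE 0.0831, adjusted p = 0.149 with limma). For Homer1 3 of 3 enrichment arrays lay above all 5 standard-cage arrays, as for 9.16% of all probe sets. Homer1 was thus opposite in sign to Homer3 and the same in sign as the brightest probe set of Homer2 (0.19). In enrichment Homer1 differed on the arrays labelled cbp+/- by -0.19 (SE 0.0929, adjusted p = 0.924 with limma). Anks1b, a scaffold of the postsynaptic density, had -0.27 in wild type (SE 0.0738, adjusted p = 0.132 with limma). Ppfia1 (liprin-alpha 1) had -0.25 (SE 0.0871) and Syngr3 (synaptogyrin 3) -0.44 (SE 0.192), each with 3 of 3 enrichment arrays below all 5 standard-cage arrays (2% of all probe sets).

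Some marker lists of other cells also leaned to one side with housing, although 0 markers of any list passed the adjusted threshold with limma. Oligodendrocyte markers were lower in wild-type enrichment for 9 of 11 (median -0.181; summed intensity 4290 to 5930 in WT_SC, 3570 to 4880 in WT_EE), astrocyte markers for 10 of 12 (11700 to 12800 and 8860 to 12900), and the 14 defining neuronal markers for 11 (5280 to 5750 and 4660 to 5720). Striatal markers were higher for 8 of 10 (1540 to 1970 and 1970 to 2540). Their median was 0.112, and Penk, the brightest of them, had the largest difference, 0.77. In wild type 5 of 11 microglial, 4 of 11 endothelial and 6 of 11 neocortical markers were lower. Of all probe sets 41.6% were lower in wild type and 45% in cbp+/-. In deciles 7 to 10 of brightness these shares were 67.9% to 73.3% and 54.9% to 61.3%. None of the oligodendrocyte, astrocyte and neuronal markers was dim, and the marker lists were not compared with genes of like brightness. In cbp+/- enrichment 5 of 11 oligodendrocyte, 6 of 12 astrocyte and 8 of 14 neuronal markers were lower. Striatal markers were higher there for 8 of 10, with Penk at 0.94. Choroid plexus markers were lower in cbp+/- enrichment for 10 of 10 (median -0.264) and higher in wild-type enrichment for 8 of 10 (median 0.0958). Their summed intensity ranged from 640 to 7810 over CBP_SC and from 708 to 778 over CBP_EE. The part of any of these in the members' values was not tested.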

How the data were processed

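Hippocampal RNA of pools of 4 mice was hybridised to 16 one-colour Affymetrix whole-transcript mouse gene arrays. The deposited intensity values had been background-corrected, normalized and summarised per probe set with RMA (per the submitters' processing notes, version not given in the sources used here), and the labels' protocols name GeneSpring GX as software. The values are on a linear scale, as their range shows, with array medians of 76.7 to 85.46, and log2 of them was taken here. Precision is limited by how many arrays a group has. Of 28815 probe sets, 21780 carry 1 gene symbol, 1605 carry several and 5430 are unnamed here, and no pair of arrays held the same values (0 pairs).

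The 4 group means were fitted with limma 3.58.1 in R 4.3.3 (lmFit and eBayes, 16 arrays, 12 residual degrees of freedom, no filter), with p adjusted by Benjamini-Hochberg over the 21780 probe sets and a threshold of 0.05, for 7 comparisons; the script was tested on simulated data. The pools are separate sets of mice. The members, gene lists and tests were chosen with earlier results of these data known. Array by array values are given, for each comparison, for the 3 members with the smallest p, the 3 with the largest difference, and the 3 brightest, and of the other synaptic genes up to 3 per list and comparison could be named. Array sets came from average-linkage clustering on 1 minus Pearson's r, with the largest number of sets, up to 4, that left no array alone. Same-numbered arrays of the 2 genotypes deviated together from their group means (r 0.54 to 0.77 over 5 pairs in standard cages, 0.26 to 0.63 over 3 in enrichment). Arrays of unlike number had r of -0.43 to 0.62 and -0.64 to 0.66 in turn. In enrichment WT_EE_1 was closer to CBP_EE_2 (0.66) than to CBP_EE_1 (0.26), so pairing of the genotypes by number is less clear there. A block for each same-numbered pair changed no call after adjustment. Alternatives were quantile normalization, median centring, a replicate block, the array sets as a block, no dim probe sets, the mean of a gene's probe sets, array weights and each array left out. After seeing the data, the pair block within housing, quantile normalization with the set block, set 1 alone and both enrichment arrays of number 3 left out were added.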

Additional observations from a re-analysis of the deposited data

Results flagged for a closer look

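Of 94 tests for a sample far from its group (44 members and 3 list levels in each standard-cage group of 5), 2 stood out, where chance gives about 1 in 20. Vamp1 was low on CBP_SC_4, at 8.33 log2 with the nearest array at 8.66. Syt1 was high on CBP_SC_3, at 12.27 with the nearest at 11.99.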

How the results depend on the processing

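The median log2 difference of the 44 members between housings stayed below 0 in every alternative run in wild type, in cbp+/- and on average. Leaving out 1 array at a time gave -0.268 to -0.0667, -0.216 to -0.0797 and -0.214 to -0.107 in turn, and 0 members passed in any of these fits. Quantile normalization with the array sets as a block took the wild-type median to -0.0332, and the cause was not tested. Members past the threshold numbered 3 with the replicate block on average over genotypes. Same-numbered arrays of the housings had r of -0.39 to -0.01 in wild type and -0.04 to 0.37 in cbp+/-. The array weights gave 7 in wild type, 1 in cbp+/-, 9 on average, and for genotype 1 in enrichment and 1 on average. Set 1 alone gave 1 in wild type and 2 on average, and leaving out both enrichment arrays of number 3 gave 1 on average. The genotype difference of Syt4 on average turned to -0.02 with array weights. With 1 array left out, Shank1 in standard cages ranged from -0.30 to 0.03 between genotypes (0.01 without WT_SC_3 or WT_SC_4, 0.03 without CBP_SC_5) and Syn1 from -0.26 to 0.10 (0.10 without WT_SC_3). Syp ranged from -0.02 to 0.51 in enrichment, from -0.04 to 0.49 in the interaction and from 0.00 to 0.26 on average, each lowest without WT_EE_3. Of the single-member values named, 8 passed the threshold under at least 1 alternative and not otherwise. Whole-hippocampus pools of 4 mice hide differences between mice and regions.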
